A study of Homo sapiens with 3 samples.

Results

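The genes PARD6B, MMD, POMK, UBASH3B, ZBTB10, HEG1, YOD1 and AADAC, were described because their levels were nearly the same after knockdown of TAZ and after knockdown of YAP, and lower than in the control in both. They are 8 of the 14884 genes with a named probe set in the series. The rule asked that the siTAZ and siYAP levels lay within 0.1 of each other on the log2 scale and that each was at least 1.5-fold below siNC, and each gene was read from its brightest named probe set. All 8 met the rule. The level, the difference from the control and the closeness of the knockdowns are the measured values the genes were selected on, and are given here as a description with no test.

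The series held 3 microarrays of A549 cells, a long-established line from a human lung cancer, with 1 array per group. The groups differed in the siRNA delivered by lipid reagent, which was a control (siNC), one directed at TAZ (siTAZ) or one directed at YAP (siYAP), and RNA was extracted 48 h after transfection. No group was left untransfected, all groups came from the 1 parental line, and the siRNA sequences were not used here. Levels are RMA values read as log2, so a difference of 1 is a factor of 2. With 1 array per group there was no replicate, so no value carries an error, no p-value is given, and no difference could be set against the spread between cultures.

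TAZ and YAP, encoded by WWTR1 and YAP1, are related transcriptional co-activators held in check by the kinases of the Hippo pathway. They do not bind DNA themselves, and act largely through TEAD transcription factors, often at enhancers that also bind AP-1. In lung cancer cells they are known for supporting growth, motility and survival. Because the proteins share partners, a gene may respond to the loss of either.

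The 8 genes belong to no single pathway. PARD6B is a scaffold of the PAR cell polarity complex, in which it binds PARD3, atypical protein kinase C and CDC42. MMD is a multi-pass membrane protein of the PAQR family first described in maturing macrophages. POMK is a kinase that phosphorylates a mannose of the sugar chain through which dystroglycan binds the extracellular matrix. HEG1 is a mucin-like transmembrane receptor that recruits the cerebral cavernous malformation (CCM) protein KRIT1. UBASH3B is a tyrosine phosphatase that interacts with CBL, a ubiquitin ligase of activated receptors. YOD1 is an OTU-family deubiquitinase that works with the ATPase VCP and has been described as a stabiliser of ITCH, a ligase of the Hippo kinases LATS. ZBTB10 is a zinc finger protein described as a repressor of SP transcription factor genes. AADAC is an esterase of the endoplasmic reticulum that hydrolyses drugs and lipids, best known in liver and gut.

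Since the genes were low together after loss of factors that act at DNA, their promoter sequences were examined. RefSeq windows of 300 bases were used (250 before the start site and 50 after it, GRCh38.p14). Those of 5 genes were examined, MMD, UBASH3B, HEG1, YOD1 and AADAC. The other 3, PARD6B, POMK and ZBTB10, were left out of the search, which does not mean that RefSeq lacks their windows. Each window was searched on both strands for the TEAD core GGAATG, the AP-1 site TGANTCA and the GC box GGGCGG that SP factors bind. The 250 bases before the start site are shown for YOD1, the only one of the 5 windows with TEAD or AP-1 letters, for MMD, with the most GC boxes, and for AADAC, with no match. Capitals mark the matches, on either strand.
YOD1 (chr1:207051209-207051458, minus strand): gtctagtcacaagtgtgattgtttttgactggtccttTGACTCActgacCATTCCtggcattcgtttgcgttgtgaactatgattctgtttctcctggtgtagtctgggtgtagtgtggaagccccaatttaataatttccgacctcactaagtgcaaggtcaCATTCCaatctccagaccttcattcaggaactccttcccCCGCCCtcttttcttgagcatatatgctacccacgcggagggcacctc
MMD (chr17:55421836-55422085, minus strand): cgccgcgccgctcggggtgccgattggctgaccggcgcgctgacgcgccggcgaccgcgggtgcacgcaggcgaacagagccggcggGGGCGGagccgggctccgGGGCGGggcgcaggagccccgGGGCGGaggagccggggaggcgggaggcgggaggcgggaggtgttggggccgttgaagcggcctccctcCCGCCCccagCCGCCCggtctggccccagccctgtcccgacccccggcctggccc
AADAC (chr3:151813866-151814115, plus strand): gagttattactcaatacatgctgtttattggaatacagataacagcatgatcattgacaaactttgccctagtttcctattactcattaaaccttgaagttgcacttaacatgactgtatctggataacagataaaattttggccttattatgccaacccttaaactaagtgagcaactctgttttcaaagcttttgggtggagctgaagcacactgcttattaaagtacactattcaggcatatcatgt

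The YOD1 window held 2 TEAD cores, both as CATTCC, starting 201 and 87 bases before the start site. It also held 1 AP-1 site, TGACTCA, starting 213 bases before it, and 1 GC box. The AP-1 site and the farther TEAD core are the first 2 runs of capitals in the YOD1 sequence above. In the table, the YOD1 start site lies inside the annotated span of the gene. Of the 35116 windows in the RefSeq table, 14.0% held a TEAD core, 7.71% an AP-1 site and 1.45% both, and 0.162% held at least 2 TEAD cores with an AP-1 site. These letters are a description of the window, not of a bound site. The combination counted last is the one that the YOD1 window holds, so its share is not a test of rarity.

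The other 4 windows held neither a TEAD core nor an AP-1 site, which says only that these letters are not in those 300 bases. GC boxes were present in MMD (5), HEG1 (4), UBASH3B (3) and YOD1 (1), against 45.0% of all windows with at least 1. The windows also differed in base composition. MMD and HEG1 had 80.7% and 79.7% G or C and 43 and 42 CG pairs, UBASH3B had 62.3% and 18, YOD1 had 47.7% and 9, and AADAC had 37.3% and 2. The medians over all windows were 58.7% and 14. No motif of the 3 searched was thus present in all 5 windows, because AADAC held none, and the windows ran from CG-rich to CG-poor. PARD6B, POMK and ZBTB10 were not searched, so this covers only part of the genes described.

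**Figure D1:**
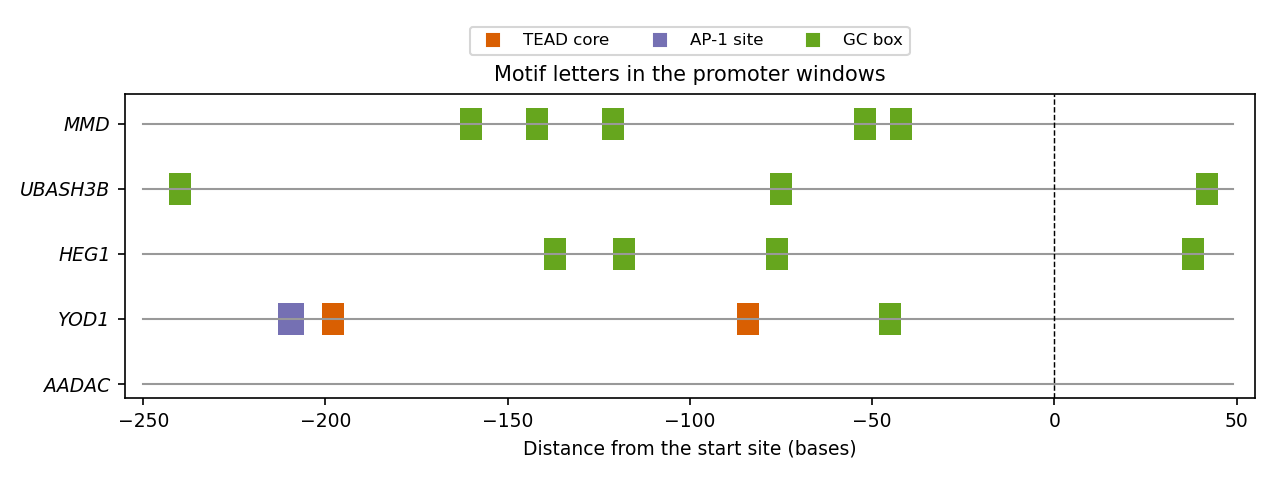
Positions of the TEAD core, AP-1 site and GC box letters on either strand in the 300-base windows of the 5 genes searched. Distance in bases from the start site (dashed line) is on the horizontal axis. Only YOD1 of these 5 has TEAD (2) and AP-1 (1) matches, and AADAC has no match.

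Each siRNA target was lower on its own array. WWTR1 was 6.50 on the control array, 5.81 on the siTAZ array and 6.50 on the siYAP array, so that 62.2% of the control level remained after siTAZ. YAP1 was 8.45 on the control array, 8.24 on the siTAZ array and 6.87 on the siYAP array, and 33.5% remained after siYAP. These YAP1 values come from the brighter of its 2 named probe sets. The dimmer was 4.95, 4.75 and 4.38 on the siNC, siTAZ and siYAP arrays, with 67.2% remaining after siYAP, and the mean of the 2 gave a difference of -1.08 in place of -1.58. How far YAP1 was lowered, beside WWTR1, thus depended on the probe set.

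Across the 8 genes, the siTAZ level was between 48.0% and 62.4% of the control, with a median of 55.5%, and the siYAP level between 48.0% and 63.0%, with a median of 55.4%. The median difference from the control was -0.85 in both knockdowns, beside a median of 0 over the 10768 genes kept after a filter on dim probe sets (mean level at or above 4.27). All 8 passed that filter. Of the kept genes, 1.02% lay at least 1.5-fold below the control after siTAZ and 0.381% after siYAP, 0.26% did so in both and 0.13% also met the closeness rule. The 8 genes are among these by choice.

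The genes of cell polarity and membrane signalling, PARD6B and MMD, lay furthest below the control. PARD6B (probe set 16914867) was 8.80 on the control array, 7.74 on the siTAZ array and 7.76 on the siYAP array. The control array was high and the knockdown arrays lay together, 0.0111 apart, at 2.08-fold and 2.07-fold below the control. MMD (probe set 16846864) was 8.94 on the control array, 7.92 on the siTAZ array and 7.89 on the siYAP array. The siYAP array was the lower of the pair by 0.0367, and the folds were 2.03 and 2.08. Of the 8 genes, 2 (PARD6B and MMD) reached 2-fold after siTAZ and 3 (these and POMK) after siYAP, where 0.241% and 0.121% of the kept genes did, and 0.065% did in both.

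Among the genes of matrix and cell surface contact, POMK (probe set 17068636) was 8.48 on the control array, 7.53 on the siTAZ array and 7.48 on the siYAP array. It passed 2-fold after siYAP (2.01) and not after siTAZ (1.93), although the arrays differed by 0.0564. HEG1 (probe set 16958403) was 7.25 on the control array, 6.52 on the siTAZ array and 6.49 on the siYAP array. Both knockdown arrays were low, 1.65-fold and 1.69-fold below the control, and siYAP was the lower by 0.0311.

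Of the regulators of ubiquitin and phosphotyrosine signalling, UBASH3B (probe set 16732676) was 8.69 on the control array and 7.87 on both knockdown arrays. Its siTAZ and siYAP values were identical as deposited, 1.77-fold below the control. YOD1 (probe set 16698766) was 6.16 on the control array, 5.48 on the siTAZ array and 5.49 on the siYAP array. It had the smallest differences of the 8 genes, 1.60-fold after siTAZ and 1.59-fold after siYAP.

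The transcriptional regulator ZBTB10 (probe set 17070273) was 6.79 on the control array, 6.04 on the siTAZ array and 6.10 on the siYAP array. It had the widest gap between the knockdowns of the 8 genes, 0.0646, and was 1.69-fold and 1.61-fold below the control. The esterase gene AADAC (probe set 16947045) was 6.43 on the control array, 5.55 on the siTAZ array and 5.54 on the siYAP array. Its knockdown arrays lay 0.00405 apart, each 1.84-fold below the control.

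**Figure D2:**
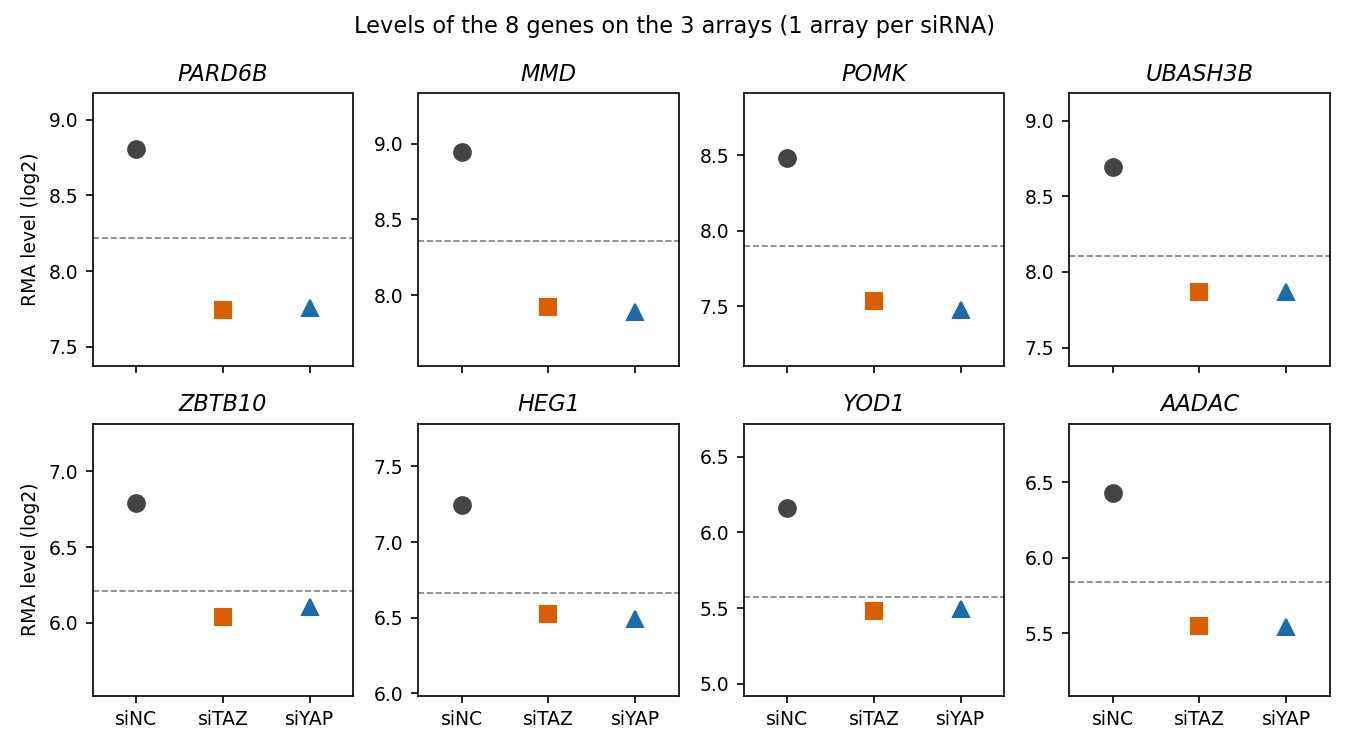
RMA level (log2) of each of the 8 genes on the siNC, siTAZ and siYAP arrays, 1 array each and so no error bars, with the dashed line 1.5-fold below the control value. All panels span the same height; the siTAZ and siYAP points lie below the line in all 8 genes and at most 0.0646 apart.

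The siTAZ array was the lower of the knockdowns for 3 genes (PARD6B, ZBTB10 and YOD1), the siYAP array for 4 (MMD, POMK, HEG1 and AADAC), and UBASH3B was tied. The median size of the gap was 0.023, and 6 of the 8 genes lay within 0.05. A small gap was common on these arrays: 80.2% of the kept genes had siTAZ and siYAP values within 0.1 of each other, 53.9% had identical values, and 41.1% were identical on all 3 arrays. Each of the 8 genes had 1 named probe set, so no second probe set bears on its value.

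The differences from siNC share the 1 control array. A high reading of a gene on that array would place both knockdowns below it by the same amount, and for these 8 genes this cannot be told apart from equal lowering by both siRNAs. Of the 28 kept genes at least 1.5-fold lower in both arrays, 14 were within 0.1 and 14 were further apart, 9 of these with siTAZ lower and 5 with siYAP lower.

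The rule was met by 14 kept genes in all, so 6 further genes had the pattern. These were MIR4454, a microRNA gene with 3 probe sets (49.9% of the control level in both), FBXW10, an F-box protein gene (50.1% after siTAZ and 52.7% after siYAP), ETS1, a transcription factor (log2 differences of -0.69 and -0.75), THBS1, the matrix glycoprotein thrombospondin 1 (-0.70 and -0.61), KIF3C, a kinesin motor (-0.66 and -0.61), and MIR665, a second microRNA gene (-0.63 in both). The bound of 1.5-fold is 0.585 on the log2 scale. Just inside it lay THBS1 and KIF3C, both at -0.61 after siYAP, and just outside lay KIRREL1, an adhesion molecule (-0.64 and -0.58), and RASA2, a RAS GTPase-activating protein (-0.58 in both). Just inside the closeness bound were THBS1 (a gap of 0.090) and FBXW10 (0.072), and just outside were the cytokine gene IL11 (0.102) and KLHL15, a ubiquitin ligase adaptor (0.112). None of the 8 genes was the nearest to a bound.

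The genes most like the 8 were those at the smallest distance from their median point, over the differences from the control of the 3 arrays. The nearest was GPAT3, an enzyme of triglyceride synthesis, at a distance of 0.115 (-0.74 after siTAZ and -0.85 after siYAP). It was followed by FBXW10 (0.164), the receptor gene ROR1 (0.186, with -0.86 and -0.67), ETS1 (0.187), SUCO (0.198, with -0.66 and -0.80) and MIR4454 (0.213). GPAT3, ROR1 and SUCO did not meet the closeness bound.

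**Figure D3:**
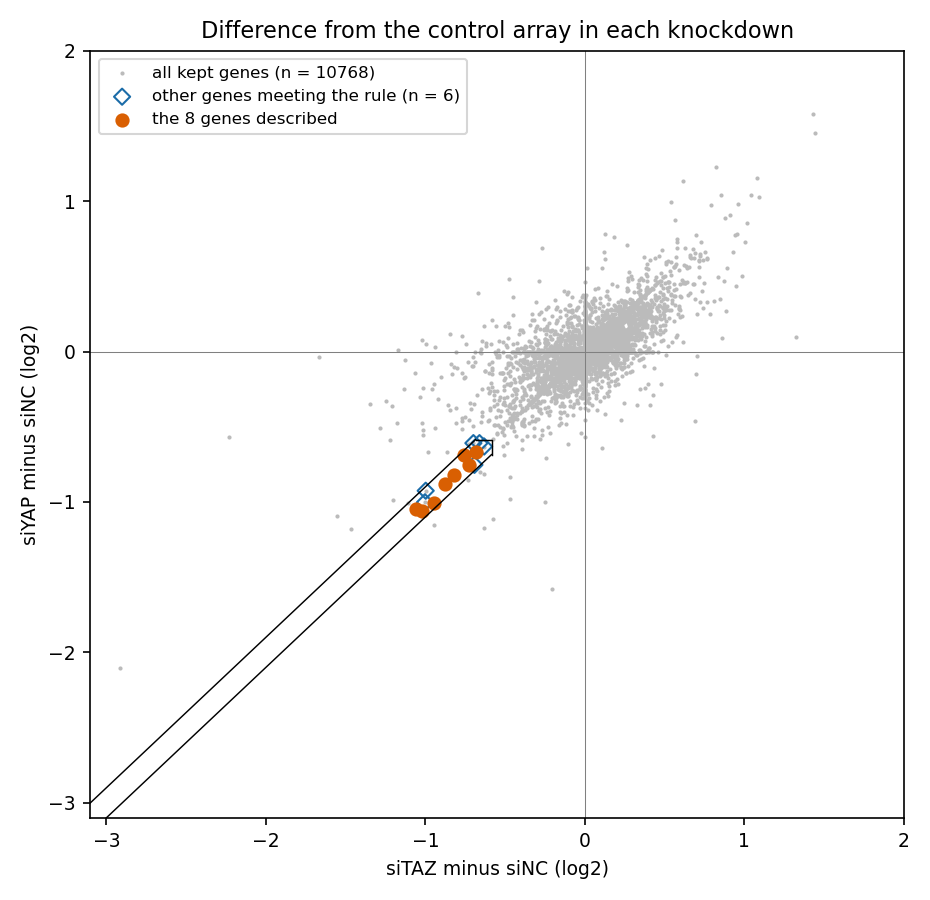
Difference from the control array (log2) after siTAZ (horizontal) and after siYAP (vertical) for 10768 kept genes, with the 8 genes as filled circles, the 6 other genes that met the rule as open diamonds, and the area of the rule outlined. The control array enters both axes, so points spread along the diagonal whatever the knockdowns did; the 8 genes lie between -1.06 and -0.67 on both.

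Partners and relatives of the 8 genes were then read from 8 lists of 133 genes, of which 93 were kept. After siTAZ 1 of the 93 was at least 1.5-fold lower and 0 were higher, and after siYAP 0 were lower and 1 was higher, where 1.02% and 0.762% of all kept genes were lower and higher after siTAZ and 0.381% and 0.52% after siYAP. The median was 0 in both comparisons, as over all kept genes, and 43 of the 93 (46.2%) were identical on the 3 arrays. These shares are close to those over all kept genes, and the rest of the 133 have no value here or were below the filter.

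In the PAR and Crumbs polarity list, 9 of 14 genes were kept and 0 passed 1.5-fold in any direction. The paralogs PARD6A and PARD6G were identical on the 3 arrays, at 6.05 and 4.40. PARD3, the partner that anchors the complex at junctions, was 8.66, 8.66 and 8.63 on the siNC, siTAZ and siYAP arrays. The widest value was LLGL1, a basolateral antagonist of the complex, at 0.45 after siTAZ and 0.34 after siYAP. PRKCI and CDC42 have no value here.

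In the PAQR list, 7 of 10 genes were kept and 0 passed. MMD2, the closest relative of MMD, was below the filter, at 4.07, 4.05 and 4.02. PAQR3 and the adiponectin receptor gene ADIPOR2 were identical on all arrays, and the widest value was PAQR4 at 0.18 after siTAZ and 0.035 after siYAP.

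In the list of dystroglycan O-mannosyl glycosylation, 8 of 18 genes were kept and 0 passed. The O-mannosyltransferase gene POMT1 was 0.01 higher in both comparisons, POMT2 was identical throughout, and POMGNT2, which extends the same mannose before POMK acts, was 0.024 higher in both. DOLK, which makes the dolichol phosphate carrier of the mannose, was 0.35 and 0.26 higher. Dystroglycan itself (DAG1) has no value here.

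Of the 8 UBASH3 and CBL partners, 4 were kept and 0 passed. The lymphoid paralog UBASH3A was identical on the 3 arrays at 5.01. CD2AP, an adaptor that binds CBL proteins, was 9.19 on the control array, 8.95 after siTAZ and 8.93 after siYAP, lower in both by 0.23 and 0.26. CBL and CBLB have no value here.

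In the HEG1-CCM list, 10 of 14 genes were kept and 0 passed. KLF2, a transcription factor gene that CCM proteins restrain through MAP3K3, was 7.40 on the control array, 6.85 after siTAZ and 6.86 after siYAP. Its differences of -0.55 and -0.54 lay 0.0074 apart and just short of 1.5-fold, so it had the same shape as the 8 genes at a slightly smaller size. The related KLF4 was identical on the 3 arrays, and MAP3K3 was 0.35 higher after siTAZ and 0.013 higher after siYAP. CCM2 was below the filter and KRIT1 has no value here.

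In the list of OTU deubiquitinases and VCP partners, 13 of 19 genes were kept and 0 passed. OTUD4, a relative of YOD1, was -0.58 after siTAZ, at the edge of 1.5-fold, and -0.11 after siYAP, so it was unlike YOD1 in the second array. ITCH was 9.40, 9.39 and 9.35 on the siNC, siTAZ and siYAP arrays, and VCP was 0.13 and 0.11 higher.

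The ZBTB and SP list was the best covered, with 38 of 41 genes kept. ZBTB44 was at least 1.5-fold lower after siTAZ (-0.73), and was -0.072 after siYAP. ZBTB45 was 0.51 higher after siTAZ and 0.59 higher after siYAP, past 1.5-fold in the second only. Of the genes ZBTB10 is described to repress, SP1 was identical on the 3 arrays, SP3 was -0.035 in both comparisons and SP4 was 0.13 and 0.037 higher.

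In the list of AADAC relatives and carboxylesterases, 4 of 9 genes were kept and 0 passed. NCEH1, a cholesteryl ester hydrolase of the AADAC family, was 8.73 on the control array, 8.60 after siTAZ and 8.33 after siYAP. It was lower after siYAP (-0.40) than after siTAZ (-0.13), whereas AADAC was equal. CES1 was 0.087 higher after siTAZ and identical after siYAP, and CES2 has no value here.

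**Figure D4:**
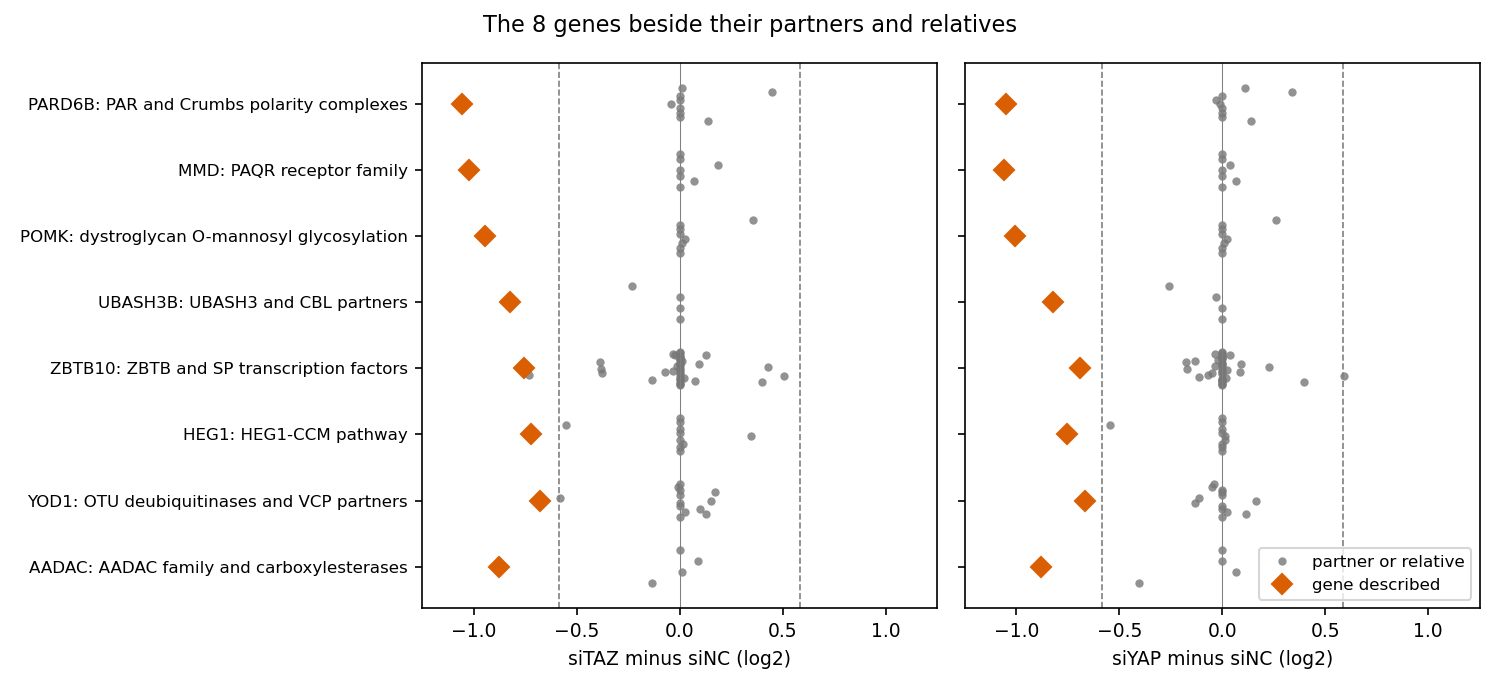
Difference from the control array (log2) after siTAZ (left) and siYAP (right) for each of the 8 genes (diamonds) and the kept partners or relatives of each (circles, 4 to 38 per list), with dashed lines at 1.5-fold. The diamonds lie left of the lower line in every list, and the circles past a line are ZBTB44 on the left and ZBTB45 on the right.

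As a check of the labelled cells, the epithelial keratin genes KRT8, KRT18 and KRT19 were 6.50, 11.56 and 6.44 on the control array, and the other 5 of the 8 epithelial and A549 markers listed have no value here. Of 14 markers of leukocytes, endothelium and fibroblasts, 8 had a named probe set, and the endothelial PECAM1 and KDR and the fibroblast DCN were below the filter. CD68 was 8.43 and LUM 7.45 on the control array, both above the filter. CD68 was 0.57 and 0.59 higher and LUM 0.69 and 0.66 higher after siTAZ and siYAP, the other 3 kept markers ranged from -0.16 to 0.059, and the part of any of these in the results was not tested.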

How the data were processed

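Total RNA (500 ng) was labelled for 1-colour Affymetrix whole-transcript arrays, per the labels' protocols. The values deposited by the authors are RMA levels, as the submitters' processing notes record. Version and annotation were not given in the sources used here. Their log2 scale is not named in what the authors deposited and was read from the range of 0.961 to 13.5 and array medians of 4.28, 4.26 and 4.27. RMA fits all 3 arrays together and equalises their distributions, so values are relative within an array, and the number of arrays limits the precision.

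Of 53617 probe sets, 16098 had 1 symbol, 0 had several and 37519 were unnamed. All 16098 Entrez identifiers matched RefSeq (GRCh38.p14), with 0 symbols changed. Each gene was read from the probe set with the highest mean, and kept at or above the median of all probe sets. Differences are of log2 values, computed with pandas 2.3.3. The genes and lists were chosen with earlier results of these data known. Named partners are the closest paralogs, binding partners, genes past 1.5-fold and, chosen after their values were seen, the widest of a list. The rule and counts were tested on simulated data. The alternatives changed the filter, centring, loess trend (span 0.4), normalization, probe set choice, fold and closeness bound.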

Additional observations from a re-analysis of the deposited data

How the results depend on the processing

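The values of the 8 genes were recomputed with 7 other settings, which gave 110 values. All 110 lay within 0.020 of the values reported, between -1.07 and -0.67, and with each setting every kept gene of the 8 still met the rule. Most of these settings could not move a value. Each of the 8 genes has 1 probe set, the filters only keep or drop a gene, and the median difference was already 0. Only the loess trend and the normalization could change the values, so the closeness says little about robustness. YOD1 was not kept with the filter at the 75th percentile. YAP1 after siYAP was -1.08 with its probe sets averaged, against -1.58. The count of genes equally low in both knockdowns was 14. It became 3 at 2-fold, 8 with a closeness bound of 0.05 and 20 with a bound of 0.2. The count of equally high genes was 19, and became 4 at 2-fold, 11 with a bound of 0.05 and 30 with a bound of 0.2. At 2-fold, 2 of the 8 genes met the rule. These counts differ because the bounds themselves are stricter or wider. No paired analysis was possible because each group has 1 array.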

Other observations

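The reverse pattern, equally high in both knockdowns at the same bounds, was met by 19 kept genes (0.176%), beside 14 equally low (0.13%). The largest was BMP2, a secreted growth factor of the TGF-beta superfamily, at 7.50 after siTAZ and 7.51 after siYAP, 1.45 above the control in both. MAPK4, an atypical MAP kinase, was 0.88 and 0.89 higher, FMNL1, a formin that shapes actin, 0.70 and 0.77 higher, and IGFBP4, which binds insulin-like growth factors, 0.66 and 0.64 higher. KLC2, a kinesin light chain, was 0.68 higher in both, with identical siTAZ and siYAP values, but 0.27 and 0.26 higher when its probe sets were averaged.

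The pattern of the 8 genes also appeared in probe sets without a gene name. Of 15272 unnamed probe sets that passed the filter, 31 met the same rule for equally low levels (0.203%), and 41 were equally high.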
